A study of Caenorhabditis elegans with 2 samples.

Results

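The regions described here are HLH-11 binding peaks that lay inside the introns of protein-coding genes and away from annotated promoters. A peak was counted when its summit, the base of highest signal, fell within a protein-coding gene, outside all coding and untranslated exon parts of that gene, and outside every window from 1000 bp upstream to 500 bp downstream of the start of a protein-coding transcript. Of the 7863 peaks in the authors' thresholded list, 1244 met this rule, or 15.8% (exact binomial 95% interval 15.0 to 16.7%). They are called intronic peaks below. The rule used positions and no signal value.

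The peaks came from chromatin immunoprecipitation and sequencing (ChIP-seq) on whole Caenorhabditis elegans. There was 1 group with 2 biological replicates and no second condition: strain OP396, in which the mutation unc-119(tm4063) III was combined with the transgene wgIs396, a source of HLH-11 carrying GFP and FLAG at its C-terminus. The worms were mixed-sex L4 larvae aged 53 hours, synchronised by bleaching and by starving the L1 larvae, and antibody to GFP recovered the protein. The tagged protein was made from a transgene, and the tissue was the whole animal, so binding in fewer cells and weaker binding in each cell cannot be told apart.

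HLH-11 is the worm relative of mammalian AP-4, a basic helix-loop-helix (bHLH) protein. Proteins of this family bind DNA as dimers at E-boxes, short sites of the form CANNTG, and AP-4 is known for binding CAGCTG. Introns of worm genes are mostly short, but long introns, often the first ones, can hold enhancers and the starts of shorter transcripts of the same gene, and small RNA genes are commonly nested within introns.

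The sequences below show what stood at the strongest intronic peaks that held each of 3 E-box forms, namely CAGCTG, the form CACGTG and the form CACATG, and at those that held TGATAA, whose GATA core is the site of GATA factors. For each, 30 bases are given 5′ to 3′ on the strand named, read from build ce11 (WBcel235), with the searched hexamer in capitals.
Y43F8B.2 intron, chrV:19527719-19527748, plus strand: aggtagcagccaCAGCTGccggtaatttac
hlh-30 intron, chrIV:4026165-4026194, plus strand: tttttcgtttttCAGCTGttccgtctaggg
F09A5.3 intron, chrX:13145350-13145379, plus strand: cgatctctgcatCACGTGaagcggcccgtc
Y43F8B.2 intron, chrV:19527751-19527780, plus strand: gttgactgatgaCACGTGgaaaattcatgt
Y43F8B.2 intron, chrV:19527764-19527793, minus strand: gctgcccaaaatCACATGaattttccacgt
gcn-1 intron, chrIII:2172074-2172103, minus strand: ctcacacacacgCACATGtaccccgcggcc
pkg-2 intron, chrIV:8527756-8527785, plus strand: ctaattattgtcTGATAAacgacccaagcc
pgph-2 intron, chrV:5768418-5768447, plus strand: ttttaaggataaTGATAAaagatcgtgaga
One peak in Y43F8B.2, with a signal of 1079 and rank 147 of 7863, held all 3 E-box forms within 50 bp of its summit, at 9, 23 and 36 bp. The peak in hlh-30, the worm counterpart of the lysosome and lipid regulator TFEB and itself a bHLH gene, had a signal of 801 and rank 313. The F09A5.3 peak had a signal of 1362 and rank 68, with CACGTG 12 bp from the summit. The peak in gcn-1, which encodes a translation regulator, had a signal of 954 and rank 212. The TGATAA copies lay 44 bp from the summit in pkg-2, a cGMP-dependent protein kinase gene, and 15 bp from it in pgph-2.

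Intronic peaks reached the top of the list but were on average weaker than promoter peaks. Their signal, the authors' peak height, ran from 88.4 to 2589, and the middle 50% of them lay between 118 and 270. They made up 5 of the strongest 20 peaks, 15 of the strongest 100 and 61 of the strongest 400. The median signal was 166 (order-statistic 95% interval 157 to 174), against 190 (186 to 194) at the 4171 promoter peaks, 181 (173 to 189) at the 1942 intergenic peaks and 135 (122 to 144) at the 232 exonic peaks. Of the intronic peaks, 21.6% (19.4 to 24.0%) were among the strongest 1965 peaks of the list, a difference from the promoter peaks of -4.46 percentage points (Newcombe 95% interval -7.04 to -1.75). Against exonic peaks the difference was 7.83 points (2.34 to 12.4).

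The share of peaks that were intronic rose as signal fell. The pooled list holds 30000 entries from both replicates together, and its label calls them peaks and background. Its lower ranks, and the summits below the threshold used further on, can therefore be background and need not be weak binding. In this list 14.1% (12.8 to 15.4%) of ranks 1 to 3000 were intronic, 18.8% of ranks 6001 to 9000 and 24.9% (23.4 to 26.5%) of ranks 27001 to 30000. Each replicate alone began at 14.0%, and the last 3000 ranks stood at 24.7% in replicate 1 and 22.4% in replicate 2. Promoter peaks ran the other way in the pooled list, from 55.8% of the first 3000 ranks to 29.7% of the last. Eligible intron sequence, meaning all bases where a summit would have met the rule, made up 24.7% of the nuclear genome, so the weakest ranks held intronic peaks at about the share of that sequence.

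**Figure D1:**
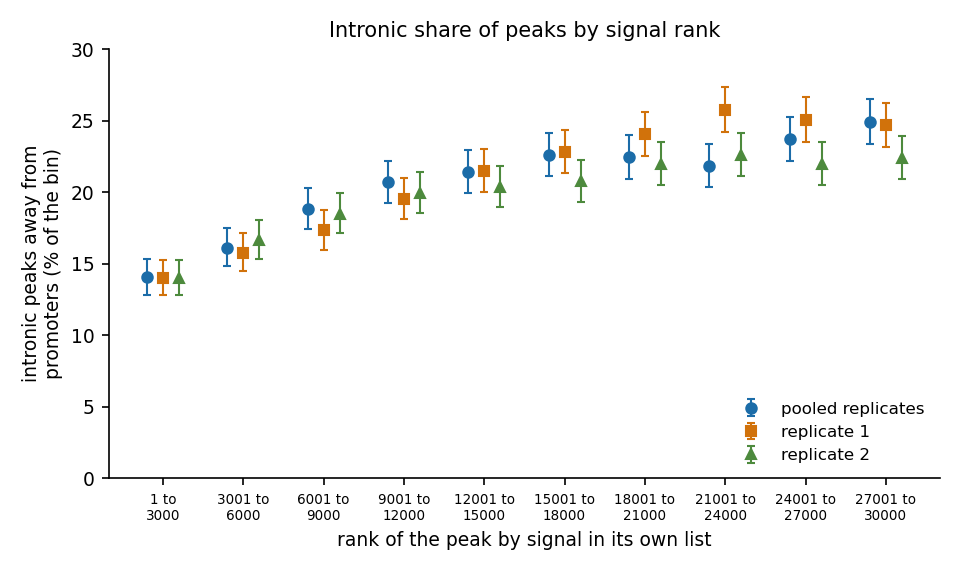
Share of peaks that were intronic and away from promoters (vertical axis, percent) in successive sets of 3000 peaks ranked by signal (horizontal axis, rank 1 is strongest), for the pooled list and for each replicate's own list; bars are exact binomial 95% intervals. All 3 lists started near 14.0% and rose to between 22.4 and 24.9% in the last set. The pooled list is labelled as peaks and background, so its last sets can hold background.

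Relative to available sequence, the intronic peaks numbered 50.2 per Mb (exact Poisson 95% interval 47.5 to 53.1) over 24.8 Mb. Promoter windows held 131 per Mb (127 to 135), intergenic sequence 90.1 per Mb (86.1 to 94.1) and exons 12.5 per Mb (10.9 to 14.2). The intervals of these 4 classes do not overlap.

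Most intronic peaks were also seen in each replicate alone. A summit within 100 bp was present among the strongest 7863 peaks of replicate 1 for 84.7% of them, among those of replicate 2 for 89.1%, and in both for 75.6% (73.1 to 77.9%). The share in both was 80.4% for promoter peaks, a difference of -4.87 points (-7.60 to -2.26). It was 62.5% for exonic peaks, a difference of 13.1 points (6.60 to 19.9). Support followed signal: 99.3% of the intronic peaks among the strongest 1965 were in both replicates' sets, and 28.2% (23.6 to 33.3%) of those among the weakest 1965. Part of this is built in, because the thresholded list equals the strongest 7863 of the peaks called on both replicates pooled. Across the 1196 intronic peaks found in both whole replicate lists, Spearman's rho between the 2 ranks was 0.81, a description over peaks that share both libraries.

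**Figure D2:**
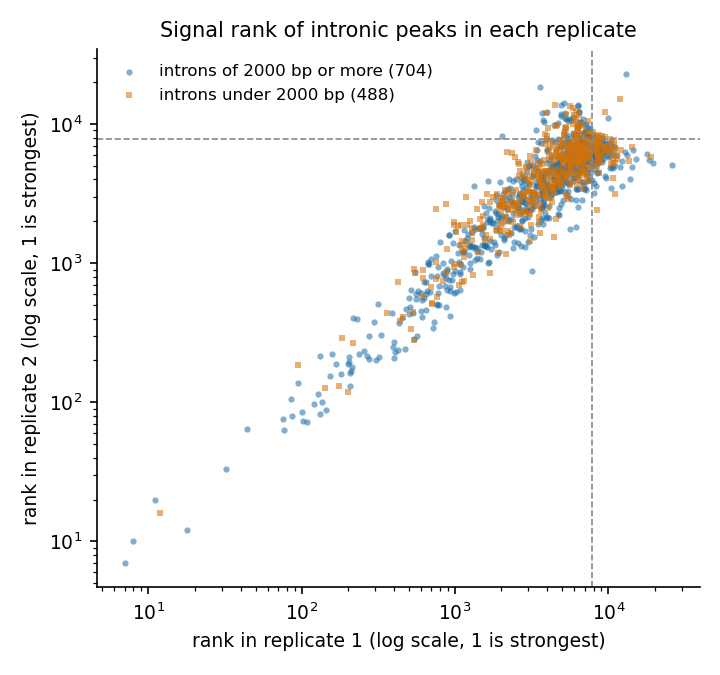
Rank of each intronic peak by signal in replicate 1 (horizontal axis, log scale) and replicate 2 (vertical axis, log scale), for the 1196 peaks with a summit in both replicate lists less 4 that lay in no intron of a protein-coding transcript; dashed lines mark rank 7863. The strongest peaks had nearly equal ranks in both replicates, and the spread widened near the dashed lines.

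The strongest intronic peak lay in pqn-41, which encodes a glutamine- and asparagine-rich protein known from the death of the male linker cell. It had a signal of 2589 and was rank 7 in the thresholded list, rank 7 in replicate 1 and rank 7 in replicate 2. It sat in intron 14 of 22, an intron of 10372 bp, at chrIII:1924951-1925656. The same intron held 3 more peaks, with signals of 2214, 1194 and 1175 and thresholded ranks 14, 104 and 110. The 4 peaks were ranks 7, 18, 121 and 94 in replicate 1 and ranks 7, 12, 97 and 137 in replicate 2, all well inside the top of each list. The gene had no peak in its own promoter windows.

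The next hosts by signal were ppfr-1, epg-9, Y111B2A.12 and pkg-2. In ppfr-1, a regulatory subunit gene of protein phosphatase 4, a peak of signal 2338 was rank 10 in the list, rank 8 in replicate 1 and rank 10 in replicate 2. Its summit also lay inside anr-20, an antisense RNA gene. In epg-9, an autophagy gene related to mammalian ATG101, a peak of signal 2213 was rank 15 in the list, rank 12 in replicate 1 and rank 16 in replicate 2. It lay in intron 2 of 5, 1044 bp downstream of a start of epg-9. In Y111B2A.12 a peak of signal 2150 was rank 17 in the list, rank 11 in replicate 1 and rank 20 in replicate 2. In pkg-2 a peak of signal 1741 was rank 30 in the list, rank 32 in replicate 1 and rank 33 in replicate 2. The replicates thus placed each of these peaks within 10 ranks of one another.

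The rest of the strongest 20 intronic peaks had signals from 1168 to 1485 and thresholded ranks from 53 to 113. They lay in zfp-1 (an AF10-related chromatin protein), F09A5.3, gei-4, nhr-19 (a nuclear hormone receptor), let-526 (an ARID-domain subunit of SWI/SNF chromatin remodellers), ppfr-1, daf-5 (a Sno/Ski-related protein of the dauer TGF-beta pathway), T28F4.1, abts-4 (an anion transporter), aak-2 (a catalytic subunit of AMP-activated kinase) and lin-42 (a relative of the clock protein Period), besides pqn-41. For 8 of these 20 peaks the intron was the first of its transcript. The lin-42 peak, of signal 1168, was rank 128 in replicate 1 and rank 115 in replicate 2. For both abts-4 peaks the nearest protein-coding start was that of mdl-1, a Mad-like bHLH gene, 6981 and 7991 bp away.

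First introns carried more peaks per base than later ones. First introns held 403 peaks in 4.34 Mb of eligible sequence, or 92.7 per Mb (83.9 to 102). Introns in the second place held 52.5 per Mb (45.3 to 60.5), those in the third place 38.8 per Mb (32.3 to 46.1), and later ones 38.7 per Mb (35.4 to 42.2). The ratio of first to later introns was 2.40 (exact conditional 95% interval 2.10 to 2.74), with 2.41 in the strongest peaks of replicate 1 and 2.36 in those of replicate 2. Among the 4956 intronic summits of the pooled list below the threshold the ratio was 1.21 (1.12 to 1.30).

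Intron length went with a larger difference. Introns under 500 bp held 32.6 peaks per Mb (28.3 to 37.3), those from 500 to under 1000 bp 25.8, and those from 1000 to under 2000 bp 30.5. Introns from 2000 to under 5000 bp held 77.5 per Mb (69.2 to 86.6), and those of 5000 bp or more 117 per Mb (106 to 129). The longest class exceeded the shortest by 3.59 times (3.03 to 4.26), with 3.44 in replicate 1 and 3.85 in replicate 2. Introns of 2000 bp or more made up 30.8% of the eligible sequence and held 59.0% of the peaks. Below the threshold the ratio of longest to shortest was 1.57 (1.44 to 1.70), and the share of intronic summits that passed the threshold went from 14.9% (13.1 to 16.9%) in introns under 500 bp to 28.6% (26.3 to 31.0%) in those of 5000 bp or more.

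Length and order overlapped, since long introns are often first introns. Within introns from 500 to under 1000 bp, first introns held 36.9 per Mb against 21.6 in those past the third place, a ratio of 1.71 (1.04 to 2.73). From 1000 to under 2000 bp, first introns held 64.3 per Mb against 18.9, a ratio of 3.41 (2.24 to 5.17). From 2000 to under 5000 bp the ratio was 1.73 (1.33 to 2.23), from 5000 to under 10000 bp it was 1.15 (0.88 to 1.51), and in introns of 10000 bp or more it was 0.92 (0.63 to 1.37). The interval thus lay above 1 for introns from 500 to under 5000 bp and included 1 for longer introns. Introns under 500 bp, with 210 peaks and 26.0% of the eligible sequence, were not split by order. Nothing is said here about first introns of that class.

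**Figure D3:**
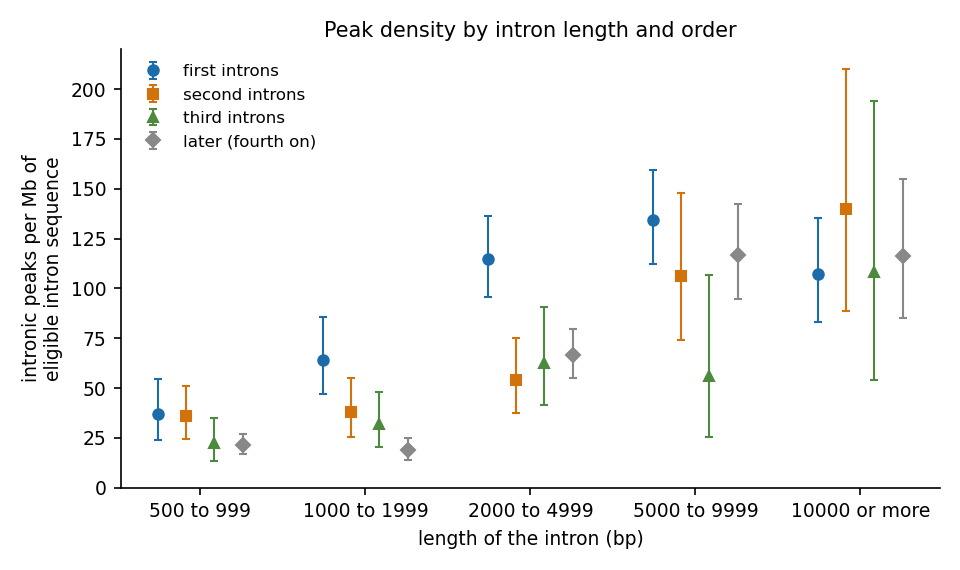
Intronic peaks per Mb of eligible intron sequence (vertical axis) by intron length in bp (horizontal axis) and by the place of the intron in its transcript; bars are exact Poisson 95% intervals. First introns stood above later ones from 1000 to under 5000 bp, at 64.3 against 18.9 and at 114.6 against 66.5 per Mb, and the bars overlapped from 500 to under 1000 bp and from 5000 bp on. Introns under 500 bp are not drawn.

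Counted by intron, 911 introns held a peak, and 30.3% (26.7 to 34.1%) of the 630 introns of 5000 bp or more did, against 0.37% (0.32 to 0.43%) of the 56301 introns under 500 bp. Of these 911 introns, 738 held 1 peak, 93 held 2 and 80 held 3 or more. The median length of an intron with a peak was 1707 bp, and that of all introns with eligible sequence was 94 bp. Peaks in introns of 2000 bp or more were also stronger: 25.7% (22.6 to 29.1%) were among the strongest 1965 of the list, against 15.8% (12.7 to 19.3%) in shorter introns, a difference of 9.94 points (5.36 to 14.3).

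Within introns the summits lay toward the middle. With each intron cut into 5 equal parts from its 5′ end, the eligible sequence held 39.97, 62.4, 60.2, 54.6 and 31.2 peaks per Mb, and the intervals of both end parts (34.4 to 46.2 and 26.4 to 36.7) did not meet those of the 3 inner parts. In introns of 2000 bp or more the end parts held 76.0 and 63.1 per Mb and the inner parts from 108 to 111. In shorter introns the end parts held 21.2 and 22.2 and the inner parts from 32.6 to 36.2, with intervals that touched at the lowest inner part. The median distance to the nearer splice site was 744 bp (638 to 847), against 234 bp for eligible sequence, but the peaks lay in longer introns. Within introns of 2000 bp or more it was 1513 bp (1415 to 1628) against 1196 bp, and in shorter ones 148 bp (133 to 156) against 131 bp. The median distance to the nearest protein-coding start was 1680 bp (1596 to 1762), against 1847 bp for eligible sequence. In introns of 2000 bp or more, density was 81.8 per Mb (63.4 to 104) under 1000 bp from a start, 120 per Mb (107 to 134) from 1000 to under 2000 bp, 87.7 per Mb (77.9 to 98.4) from 2000 to under 5000 bp and 75.5 per Mb (57.9 to 96.8) from 5000 to under 10000 bp, so it did not fall steadily with distance. In shorter introns it was 38.5 (32.6 to 45.2), 35.1 (30.5 to 40.1), 23.0 (19.2 to 27.3) and 10.5 per Mb (5.58 to 17.9) over the same distances.

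The nearest start belonged to the host gene for 1086 peaks (87.3%). For 651 of all the peaks (52.3%, 49.5 to 55.1%) the summit lay upstream of at least 1 start of its own host, so that a peak inside one transcript was in front of a shorter one. For 320 (25.7%, 23.3 to 28.3%) that start was also the nearest of any gene. The strongest pqn-41 peak was of this last kind, 2357 bp upstream of a pqn-41 start, as were the strongest peaks of daf-5 (2700 bp) and lin-42 (3046 bp). The matching shares of eligible sequence were not computed. These counts therefore do not show whether peaks lay in front of host starts more often than that sequence does. Across the outer edge of the promoter window, the 25 intronic peaks within 100 bp outside the upstream limit had a median signal of 208, and the 27 within 100 bp inside it, which were not counted as intronic, had 236. At the downstream limit the medians were 167 (37 peaks outside) and 171 (42 inside).

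The X chromosome held 74.1 intronic peaks per Mb of eligible sequence (66.0 to 82.8) and the autosomes together 45.4 (42.6 to 48.4), a ratio of 1.63 (1.43 to 1.86). The ratio was 1.67 in replicate 1 and 1.60 in replicate 2. Among the intronic summits below the threshold it was 1.29 (1.205 to 1.385). Single autosomes ran from 39.3 per Mb on chromosome V to 54.5 per Mb on chromosome II, all with intervals below that of X. The difference sat in shorter introns: the ratio was 2.40 (1.98 to 2.90) in introns under 2000 bp, at 57.8 against 24.1 per Mb, and 1.16 (0.96 to 1.40) in longer ones, at 109 against 93.5 per Mb. These 2 intervals do not overlap. With summits within 100 bp of any non-coding gene left out, the ratios were 2.65 (2.13 to 3.30) and 1.06 (0.86 to 1.31).

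Nested RNA genes coincided with a good part of the intronic peaks. The summit lay inside a non-coding gene for 151 peaks (12.1%, 10.4 to 14.1%) and inside or within 100 bp of one for 250 (20.1%, 17.9 to 22.4%). Per base, sequence inside such genes held 287 peaks per Mb and the remaining eligible sequence 45.1, a ratio of 6.36 (5.33 to 7.55). Most of these summits were at genes annotated as ncRNA, 117 of the 151 inside and 185 of the 250 inside or within 100 bp. For transfer RNA (tRNA) genes these counts were 51 and 86, and a summit could be near genes of more than 1 class. Of the 2106 nested ncRNA genes, 204 (9.69%) had an intronic peak within 100 bp. The share was higher for tRNA genes, and 4 of the 8 nested lincRNA genes (50%, 15.7 to 84.3%) had one. Of the 212 tRNA genes in eligible introns, 89 (42.0%, 35.3 to 48.9%) had an intronic peak within 100 bp, 93 had one of replicate 1's strongest peaks and 96 one of replicate 2's. The share was 38.2% (33.5 to 43.2%) for the 400 other tRNA genes of the genome, counting all thresholded peaks. Of 105 nested snoRNA genes, which encode guides for RNA modification, 28.6% (20.2 to 38.2%) had a peak, and of 68 nested microRNA genes 1 had one, or 1.47% (0.037 to 7.92%). The most numerous nested class listed, 4134 piRNA genes, had a peak within 100 bp at only 3, or 0.073% (0.015 to 0.21%). Since tRNA genes come in near-identical copies and the handling of reads with several matches is not given in the sources used here, a peak at one copy could hold reads of another.

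The 86 intronic peaks within 100 bp of a tRNA gene were seldom among the strongest. Of these, 7 (8.14%, 3.33 to 16.05%) were among the strongest 1965 of the list, against 21.6% of all intronic peaks, 70 were among the strongest of both replicates and 76 lay in introns under 2000 bp. Their median rank was 4534, near that of all intronic peaks (4344). The strongest was in sulp-3, a sulphate-permease family gene, at signal 610 and rank 573, followed by one in him-4, the hemicentin gene, at signal 381 and rank 1346. With summits near tRNA genes left out, the X to autosome ratio in introns under 2000 bp was 2.33 (1.88 to 2.86).

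The peaks fell in 787 host genes, which is 3.94% of the 19973 protein-coding genes, 5.00% of the 15734 with any eligible intron sequence and 16.3% of the 3331 with more than 2 kb of it. Most hosts held 1 peak (566 genes, 71.9%), 104 held 3 or more, and those 104 accounted for 444 peaks (35.7%). Hosts were large: the median host spanned 7345 bp with 8 introns and 3.42 kb of eligible sequence, against 2508 bp, 5 introns and 0.65 kb over all genes with eligible sequence. A promoter peak was present at 437 of the 787 hosts (55.5%, 52.0 to 59.0%) and at 20.2% of the other genes with eligible sequence, a difference of 35.4 points (31.8 to 38.9). The difference was present in each size class, from 35.8 points (26.4 to 44.8) in genes with up to 1 kb of eligible sequence to 27.4 points (3.38 to 48.3) with over 20 kb (26 hosts and 32 other genes).

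The 10 hosts with the most peaks were lin-14, daf-16, T28B11.1, ppfr-1, aakg-1, pkg-2, fkh-7, daf-5, ZK470.2 and daf-12. Of the 5 hosts tied at 7 peaks, daf-5, ZK470.2 and daf-12 were taken by strongest signal, and H18N23.2 (strongest signal 810) and hlh-30 (801) also held 7. The gene lin-14, whose protein sets early larval cell fates, held 12 peaks in 5 introns, with signals from 94.2 to 502. The strongest was rank 836 in replicate 1 and rank 851 in replicate 2, and the weakest was absent within 100 bp from replicate 1's list and rank 19970 in replicate 2. The gene daf-16, which encodes the FOXO factor of insulin signalling, held 11 peaks in 3 introns, with signals from 99.1 to 900. Its strongest peaks, of signal 900 and 802, were rank 317 and 331 in replicate 1 and rank 213 and 307 in replicate 2, and lay in introns of 12401 and 7676 bp. In T28B11.1 all 11 peaks lay in 1 intron of 17091 bp, with signals from 92.5 to 744.

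In ppfr-1, 10 peaks in 2 introns had signals from 125 to 2338. In aakg-1, a gamma subunit gene of AMP-activated kinase, 9 peaks ran from 130 to 927. The 8 peaks of pkg-2 ran from 213 to 1741, with replicate 1 ranks up to 3386 and replicate 2 ranks up to 3755. The forkhead gene fkh-7 had 8 peaks from 94.3 to 1018, with 6 of them in its first intron of 16465 bp. All 7 peaks of daf-5 were in its first intron of 14446 bp and ran from 144 to 1249, with a median of 551. ZK470.2 held 7 peaks from 103 to 994, and daf-12, a nuclear hormone receptor gene of the dauer and timing pathways, 7 from 116 to 819. Of the 10 hosts, 9 also had a promoter peak, and daf-12 had none.

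**Figure D4:**
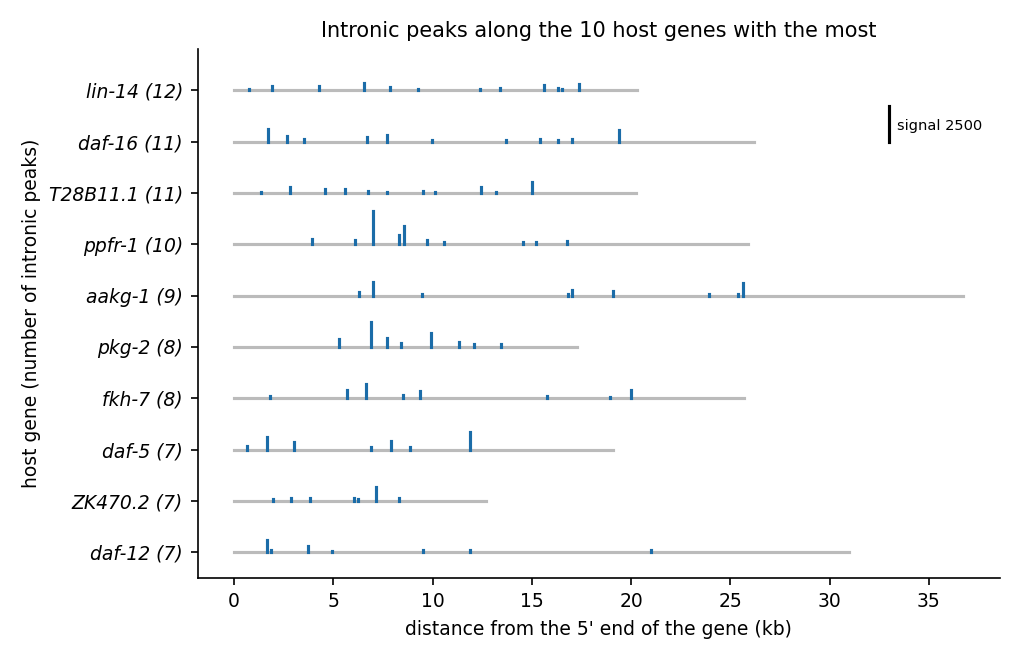
Position of every intronic peak along the 10 host genes with the most of them, as distance in kb from the 5′ end of the gene (horizontal axis); grey lines give the length of the gene and the height of each blue bar its signal, with a black bar of signal 2500 for scale. The peaks were spread over several kb in each gene, with strong ones beside weak ones.

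Among 20 gene lists, intronic peaks were densest in heterochronic timing genes, followed by lipid and nutrient regulators, the GATA, forkhead and other tissue factors, TGF-beta signalling, and insulin and TOR signalling, with overlapping intervals. The intervals of the lists treat each peak as independent, although peaks clustered within hosts, so they are likely too narrow. Ion channels and chemoreceptors were the lists whose intervals lay below the value for all genes. List densities were not adjusted for intron length, which itself went with density. The part of intron length in the differences between lists was not tested. The heterochronic timing list had 37 peaks in 11 of its 27 genes, or 316 per Mb of eligible sequence (222 to 435), against 50.2 over all genes. Of its 12 genes with over 2 kb of eligible sequence 8 were hosts, against the 16.3% of all such genes. Besides lin-14 with 12 peaks and daf-12 with 7, its hosts included lin-42, kin-20 (a casein kinase related to Doubletime) and sea-2 (a zinc finger protein that acts in sex determination). The strongest kin-20 peak had a signal of 1004 and was rank 131 in replicate 1 and rank 216 in replicate 2. The strongest sea-2 peak had a signal of 577, rank 572 in replicate 1 and rank 626 in replicate 2. Without lin-14, the list's density was 245 per Mb (159 to 362).

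The lipid and nutrient regulators had 41 peaks in 13 of 36 genes, or 295 per Mb (212 to 401), with 10 of their 14 genes over 2 kb as hosts. The strongest was in klf-1, a Krüppel-like factor, at signal 904, rank 216 in replicate 1 and rank 268 in replicate 2. It was followed by daf-16, daf-12 and hlh-30, whose 7 peaks reached a signal of 801. Insulin and TOR signalling genes had 33 peaks in 8 of 32 genes, or 214 per Mb (147 to 300). Their strongest peaks were in aak-2 (1202), aakg-1 (927), daf-16 (900) and skn-1 (500), the last encoding a stress factor related to Nrf proteins. The list took in the AMP-activated kinase genes aak-2 and aakg-1, which held 1 and 9 of the 33 peaks. The aak-2 peak was rank 145 in replicate 1 and rank 88 in replicate 2, in a first intron of 3475 bp.

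TGF-beta signalling had 19 peaks in 6 of 24 genes, or 221 per Mb (133 to 345). Its strongest peaks were in daf-5 (1249), sma-9 (1050, a Schnurri-related cofactor), daf-14 (824, a Smad) and daf-12 (819). The list took in daf-12, a nuclear hormone receptor gene, which held 7 of the 19 peaks. GATA, forkhead and other tissue factors had 38 peaks in 12 of 53 genes, or 255 per Mb (181 to 350), led by fkh-7, daf-16, fkh-9 and egl-44. The nuclear hormone receptors, a large worm family of ligand-regulated factors, had 51 peaks in 30 of 274 genes, or 137 per Mb (102 to 180). Their leading peaks were in nhr-19 (signal 1304, rank 87 in replicate 1 and rank 80 in replicate 2) and nhr-3 (signal 1135, rank 142 in replicate 1 and rank 127 in replicate 2). The bHLH list had 10 peaks in 3 of 41 genes, or 188 per Mb (90.4 to 347). The genes were hlh-30 with 7, hlh-1, the MyoD relative, with 2, and mdl-1 with 1. Without hlh-30 its density was 74.5 per Mb, and the interval (15.4 to 218) included the value for all genes. The lists share genes: daf-12 was in 4 of them and daf-16 in 3, so they are not separate evidence.

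Several lists lay near the density of all genes. Axon guidance and cell adhesion genes had 49.9 per Mb (30.03 to 77.9), led by cam-1, a ROR receptor kinase, at signal 565. Synaptic release genes had 62.6 per Mb (35.8 to 102), led by unc-43, the calcium/calmodulin kinase, at signal 426. Muscle sarcomere genes had 43.6 per Mb (19.9 to 82.7), led by lev-11, a tropomyosin, at 247 and myo-3, a myosin heavy chain, at 240. Basement membrane genes had 49.4 (21.3 to 97.3), led by pxn-1 at 565. That pxn-1 peak was rank 740 in replicate 1 and had no summit within 100 bp in replicate 2's list. The Ras and Notch list had 44.0 (21.1 to 81.0), led by lag-1, the DNA-binding factor of Notch signalling, at 992, and mpk-1, a MAP kinase, at 660. Wnt genes had 73.0 (26.8 to 159), RNA-binding proteins 49.3 (18.1 to 107) and homeobox factors 33.1 (10.7 to 77.2).

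Lower densities were found for ion channels, at 14.6 per Mb (4.73 to 34.0), and chemoreceptors, at 8.35 per Mb (3.06 to 18.2). The 51 ion channel genes matched had 5 peaks, and the 1309 chemoreceptor genes 6. Of the 39 channel genes with over 2 kb of eligible sequence 5 were hosts (12.8%, 4.30 to 27.4%), an interval that includes the 16.3% of all such genes, so the lower density of peaks was not matched by a lower share of hosts beyond counting error. Of the 39 chemoreceptor genes over 2 kb, 2 were hosts (5.13%, 0.63 to 17.3%), an interval that also includes the 16.3%. Neurotransmitter receptors had 4 peaks (22.8 per Mb, 6.22 to 58.4, an interval that includes the value for all genes), of which glr-2 held 3. Cuticle collagens had 1, in col-99, and the 77 ribosomal protein genes had 0, with only 0.00176 Mb of eligible sequence between them. In the strongest peaks of replicates 1 and 2 the counts were 36 and 36 for the timing list, 37 and 42 for the nutrient list, and 6 and 5 for ion channels. They lay further apart for the tissue factors, at 30 and 43, synaptic release, at 12 and 18, and basement membrane, at 9 and 5.

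**Figure D5:**
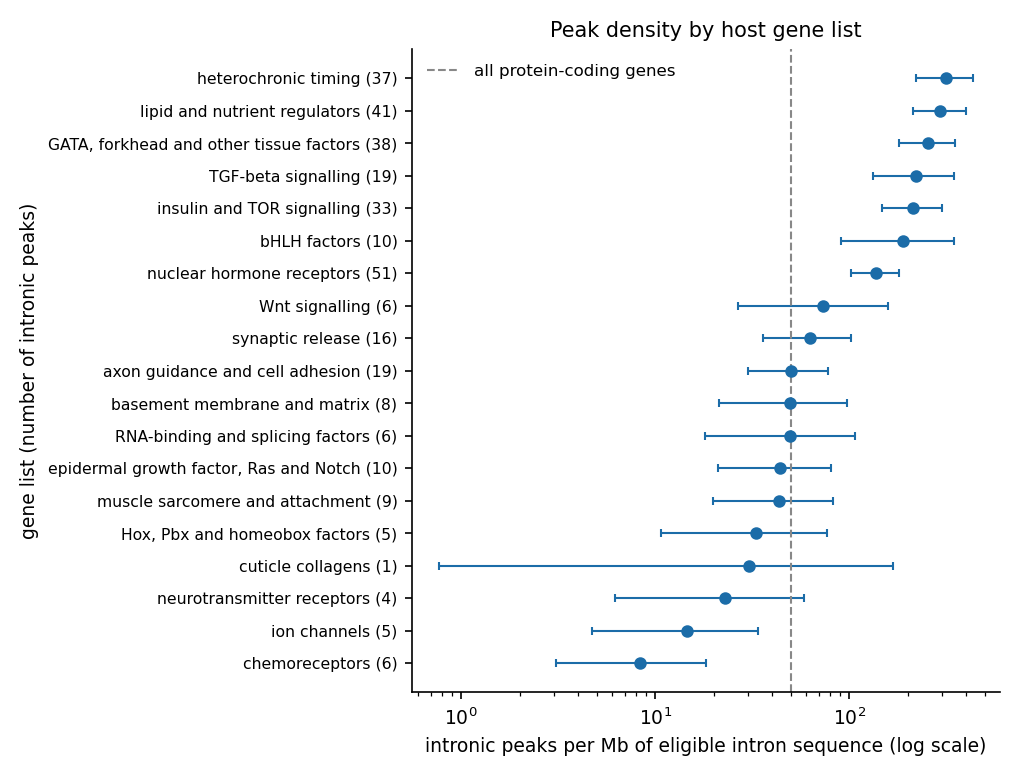
Intronic peaks per Mb of eligible intron sequence (horizontal axis, log scale) for 19 gene lists, with the number of peaks in parentheses; bars are exact Poisson 95% intervals, and the dashed line is the value of 50.2 for all protein-coding genes. Timing, nutrient, tissue factor, TGF-beta, insulin, bHLH and nuclear receptor lists stood right of the line, and chemoreceptors and ion channels left of it; ribosomal protein genes, with 0 peaks, are not drawn.

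The gene hlh-11 itself had no intronic peak in its 2.59 kb of eligible sequence, and atgl-1, the adipose triglyceride lipase gene, none in 0.71 kb. The gene unc-119 had 1, of signal 112 and rank 6477, at rank 6686 in replicate 1 and rank 6347 in replicate 2. The transgene carries hlh-11 sequence, so reads at that gene can come from either copy, and the 2 sources were not separated. The strain also carries an unc-119 mutation, and whether the transgene holds unc-119 sequence was not examined here. The same limit may therefore apply to the unc-119 peak.

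By raw share, GATA-type and GA-rich hexamers were more common at the summits than the 3 E-box forms searched. Raw shares also follow how common each hexamer is in intron sequence, such as 8.42% of tiles for TGATAA and 1.33% for CACGTG. They therefore do not rank the hexamers by excess over background. Each hexamer was sought on both strands within 50 bp of the summit, in 2 flanking pieces of the same total width centred 300 bp away, and in 209702 tiles of the same width of eligible intron sequence. CAGCTG was present at 39 of 1244 summits (3.14%, 2.24 to 4.26%), in 1.93% of the flanks and in 1.25% of the tiles. CACGTG was present at 6.83% (5.49 to 8.38%), against 1.77% of flanks and 1.33% of tiles. CACATG was present at 10.2% (8.58 to 12.0%), against 4.26% and 2.51%. Of the 3 E-boxes, CACGTG and CACATG thus had summit intervals above both backgrounds, while the CAGCTG interval was above that of the tiles and overlapped that of the flanks. Intronic summits below the threshold had CAGCTG at 3.07%, a difference of 0.07 points (-0.91 to 1.28) from the intronic peaks, whereas each of the other 7 hexamers was more frequent at the intronic peaks, from CACGTG, by 4.27 points (2.91 to 5.86), to TGATAA, by 16.8 points (14.3 to 19.4).

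TGATAA was present at 25.3% of summits (22.9 to 27.8%), against 9.89% of flanks and 8.42% of tiles. The value depended on the replicate, at 29.0% in the strongest peaks of replicate 1 and 22.0% in those of replicate 2. CTTATC, whose other strand reads GATAAG and can overlap TGATAA, was present at 18.8% (16.7 to 21.1%), against 4.02% and 2.71%. GAGAGA was present at 25.5% (23.1 to 28.0%), against 7.23% and 4.14%, CGTCTC at 11.7% against 3.54% and 1.99%, and ACGCAG at 8.52% against 1.85% and 1.78%. Summit windows had a GC content of 44.2%, flanks 36.4% and tiles 32.8%, and the part of base composition in these shares was not tested. Both flank pieces offer fewer start positions for a hexamer than 1 window of that width.

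Compared with promoter peaks, intronic summits had CAGCTG less often, at 3.14% against 4.60% (difference -1.47 points, -2.54 to -0.20), and CACATG more often, at 10.2% against 7.24% (2.97 points, 1.20 to 4.92). CACGTG differed by 1.22 points (-0.25 to 2.90) and TGATAA by 1.75 points (-0.93 to 4.55), both with intervals that include 0. ACGCAG was less frequent in introns than at promoter peaks, at 8.52% against 13.3% (-4.74 points, -6.52 to -2.78). Against intergenic peaks the interval included 0 for every hexamer searched, so no difference from that class was resolved. The differences from intergenic peaks were -1.93 points (-3.96 to 0.18) for ACGCAG, 0.84 (-1.245 to 3.02) for CACATG and -1.29 (-2.60 to 0.10) for CAGCTG. Among intronic peaks, CACGTG was present in 12.6% of those in the strongest 1965 of the list and 5.93% of those in the weakest 1965, a difference of 6.71 points (2.16 to 11.6). For CAGCTG the same difference was 2.10 points (-1.06 to 5.71).

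Of the 8 hexamers, 4 differed by intron length with an interval that left out 0. GAGAGA was at 32.3% of summits in introns of 2000 bp or more and 15.8% in shorter ones, a difference of 16.5 points (11.7 to 21.0). TGATAA went the other way, at 22.5% and 29.4% (-6.97 points, -11.98 to -2.02), as did CTTATC, at 15.7% and 23.3% (-7.65 points, -12.2 to -3.18). CGTCTC was more frequent in the longer introns by 5.53 points (1.93 to 8.97). The interval included 0 for the 3 E-boxes, which differed by 0.94 to 2.23 points with bounds from -2.59 to 4.97, and for ACGCAG, which differed by 1.42 points (-1.83 to 4.48). The 86 peaks near tRNA genes had TGATAA in 6.98% (2.60 to 14.6%) and CAGCTG in 0 of 86, which allows a share of up to 4.20% by the exact interval. With those peaks left out, TGATAA stood at 33.3% (28.8 to 37.9%) of summits in introns under 2000 bp and 22.8% (19.8 to 26.0%) in longer ones.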

How the data were processed

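The deposited lists hold one row per peak, and each has a signal value and a summit offset, both as given by the authors' peak caller per the file headers and labels. The signal was used only to rank and describe peaks within a list. The 4 lists were 1 per replicate and 1 from the pooled replicates, of 30000 peaks each, and the authors' thresholded list of 7863. The label of the pooled list of 30000 names its content as peaks and background. The authors' further score columns were not used. Positions refer to build ce11 per the labels, and fragments ran from 200 to 800 bp. Neither the aligner nor the caller is named in the sources used here, the control was not analysed here, and the lists hold no read counts, so depth is unknown.

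Genes came from the WBcel235 annotation (Ensembl release 115) and sequence from the RefSeq assembly of the same build. The class order was promoter, intron, exon, non-coding gene, intergenic. A summit was given to its innermost host gene and to the intron of the host transcript with the longest coding sequence that held it. Of the 1244 intronic peaks, 7 lay in an exon of another gene, 5 had more than 1 host, and 4 lay in no intron of a protein-coding transcript and were left out of order and length. Densities divide counts by eligible sequence. Intervals are at 95% (exact binomial, Poisson and conditional binomial; Newcombe for differences; order statistics for medians) and cover the counting of peaks only. The intervals treat each peak as independent, but peaks clustered, with 444 of them in 104 hosts. They are therefore likely too narrow, above all for gene lists where a few hosts hold many peaks. Peaks of 1 list share 2 libraries, so no p-value was computed. Values from each replicate's own strongest 7863 peaks are the replicate check. Python 3.11.15, numpy 2.4.6 and scipy 1.17.1 were used, and the density and hexamer counts were tested on simulated data.

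Genes named were the hosts of the 20 strongest intronic peaks, the 10 hosts with the most, up to 4 hosts of each list by strongest peak, hlh-11, unc-119 and atgl-1, and the hosts of the printed sequences. The hosts sulp-3, at a tRNA gene, and H18N23.2, tied at 7 peaks, were named after their values were seen. The class of regions, the gene lists and the hexamers were chosen with earlier results of these data known. Splitting the X and hexamer comparisons by intron length and by nested genes, splitting position in the intron by length, and leaving out the host with the most peaks from each list, were chosen after seeing the data.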

Additional observations from a re-analysis of the deposited data

How the results depend on the processing

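Of 130 values recomputed under the alternatives fixed at the start, 98 stayed within the 95% interval of the reported value (counts within 1.5 times) and 32 moved. A change of direction could be scored only for the ratios of first to later introns, longest to shortest introns and X to autosomes. Among those ratios 0 changed direction, and shares and counts could only stay or move. In the strongest part of the list (50% of the peaks), 14.1% were intronic (555 peaks in 390 hosts), 26.1% of these were in its top 25%, 98.4% were supported in both replicates, the ratio of longest to shortest introns was 4.60, 39.2% of hosts had a promoter peak, CACGTG was at 9.37% of summits, TGATAA at 29.0% and GAGAGA at 29.4%. The promoter window set the share of intronic peaks, at 12.0% with 2000 bp upstream and 19.9% with 500 bp upstream and 250 bp downstream, and the share of hosts with a promoter peak, at 65.9% and 42.6%. Without summits near non-coding genes, the first to later ratio was 2.74, the longest to shortest ratio 5.01 and the TGATAA share 29.7%. Using 1 replicate alone, support in the other was 75.2 to 78.8% and TGATAA 22.0 to 29.0%. Support was 66.0% at a match distance of 50 bp and 79.3% at 200 bp. With windows of 25 and 100 bp to either side of the summit, CAGCTG was at 1.69 and 6.91%, CACGTG at 3.46 and 11.5%, TGATAA at 15.1 and 37.3%, and GAGAGA at 14.5 and 40.8%. Nested genes held 12.1% of summits inside and 27.7% within 500 bp. The X to autosome ratio stayed between 1.53 and 1.69 under those alternatives. Another 44 values, for splits chosen after seeing the data, included 19 that moved. Direction could be scored only for the X to autosome ratios among them, of which 0 changed direction. In introns under 2000 bp and in longer ones the X to autosome ratio was 2.40 and 1.16, without summits near tRNA genes 2.33 and 1.13, and without those near any non-coding gene 2.65 and 1.06. In the same order of intron length, TGATAA was at 29.4 and 22.5% of summits and GAGAGA at 15.8 and 32.3%; without summits near tRNA genes these were 33.3 and 22.8% and 16.7 and 32.6%. Without the host with the most peaks, 3 of the 19 lists left the interval of their density: bHLH factors, neurotransmitter receptors and cuticle collagens. No paired analysis was possible because there was 1 group. Depth is unknown, so weak peaks missed for lack of reads cannot be told from absent binding.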
